A study of Mus musculus with 5 samples.

Results

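The mature striatal neuron marker genes examined here are the 9 genes Ppp1r1b, Pde10a, Rgs9, Arpp21, Drd2, Adora2a, Penk, Pdyn and Tac1, out of 22367 protein-coding genes of the mouse chromosomes. They were chosen by name, and a gene was given every H3K9ac peak centred no more than 10 kb from one of its annotated transcript starts. Under this rule, 9 of 34286 peaks in DOP-treated cells and 5 of 33355 peaks in untreated cells belonged to them. The cells were STHdh Q111 cells, conditionally immortalized striatal progenitors of the mouse that express mutant huntingtin. All of them were kept without serum for 24 h. The untreated group (Q111 SST, 2 samples) received vehicle, and the treated group (Q111 DOP, 2 samples) received 4 mM 4-deoxypyridoxine hydrochloride (DOP), an inhibitor of sphingosine-1-phosphate lyase. An IgG sample of untreated cells was the negative control, and wild-type cells were not analysed here. The deposited data are 1 peak list per condition, so no count below has an error between replicates, no test between conditions was possible, and every difference is a difference between 2 lists. The read depth behind the lists is unknown.

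Medium spiny neurons are the projection neurons of the striatum and the cells that degenerate first in Huntington's disease. They use GABA as transmitter, they read dopamine and adenosine signals through cyclic AMP, and the loss of their marker transcripts is a long-known feature of the disease. Acetylation of histone H3 at lysine 9 (H3K9ac) lies mainly at the promoters of active genes, where it stretches over the nucleosomes around the transcription start. The 9 genes become abundant as these neurons mature, whereas STHdh cells are progenitors.

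Most of the markers carried no H3K9ac peak in either condition. Penk, Pdyn, Tac1, Adora2a, Drd2, Rgs9 and Arpp21 had no peak within 10 kb of a start, which is 7 of 9 markers, against 40.7% of all protein-coding genes. Ppp1r1b and Pde10a had peaks, so that 2 of 9 markers had a DOP peak (57.7% of all genes), 2 had an untreated peak (56.9%) and the same 2 had peaks of both lists (55.3%). The members nearest to the limit were Pde10a, whose untreated peak lay 6882 bp from a start, and Rgs9, whose nearest untreated peak lay 33621 bp away. Within 1 kb of a start the lists differed at the markers. Ppp1r1b and Pde10a had a DOP peak there (2 of 9 markers, 51.4% of all genes), and 0 of 9 had an untreated peak (50.9% of all genes). A DOP peak without an untreated peak within 1 kb occurred at 1.8% of all genes, and the reverse at 1.27%, which included 0 markers. Peaks between the ends of the gene were found in 2 of 9 markers and in 54% of all genes.

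The 3 stretches of sequence below show what a peak, a promoter beside a peak and 1 of the promoters without a peak are made of. The first is the highest-scoring DOP peak of Pde10a, at chr17:8994142-8994341 on the plus strand. The others are the 200 bases before the 5′ end of Ppp1r1b (chr11:98209518-98209717, plus strand), which has a DOP peak just downstream, and of Pdyn (chr2:129525581-129525780, minus strand), which has none. They were read from the mm9 assembly in the direction of the gene, and capitals mark the CpG dinucleotides.
Pde10a peak: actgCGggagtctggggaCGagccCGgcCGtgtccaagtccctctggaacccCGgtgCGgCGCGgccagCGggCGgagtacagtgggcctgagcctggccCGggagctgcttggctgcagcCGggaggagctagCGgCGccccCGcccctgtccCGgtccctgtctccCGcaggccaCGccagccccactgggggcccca
Ppp1r1b: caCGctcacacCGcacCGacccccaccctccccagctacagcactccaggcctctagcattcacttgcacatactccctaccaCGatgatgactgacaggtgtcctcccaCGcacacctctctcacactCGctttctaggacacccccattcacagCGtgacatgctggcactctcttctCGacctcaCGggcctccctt
Pdyn: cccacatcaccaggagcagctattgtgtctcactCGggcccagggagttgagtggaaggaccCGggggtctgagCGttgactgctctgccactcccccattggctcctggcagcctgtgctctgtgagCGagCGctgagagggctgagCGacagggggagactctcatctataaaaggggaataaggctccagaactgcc

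The Pde10a peak held 18 CpG, whereas Ppp1r1b held 9 and Pdyn 6. The Pde10a stretch is a peak before internal starts, so it is not a like window to the others. The 200 bases before the 5′ end of Pde10a, where no peak lay, held 12. Over all genes the 200 bases before the 5′ end held a median of 7 CpG, with quartiles of 2 and 15. Promoters without a peak were not uniformly poor in CpG: the same 200 bases held 17 at Rgs9, 16 at Tac1, 11 at Adora2a and 1 at Arpp21. At Penk and Drd2, also without a peak, they held more CpG than the 18 of the Pde10a peak. The wider window used below likewise places Penk and Drd2 among the CpG-rich genes.

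Ppp1r1b encodes DARPP-32, the phosphoprotein that integrates dopamine and cyclic AMP signals by inhibiting protein phosphatase 1. The gene lies on chromosome 11 from 98209718 to 98219110 on the plus strand and has 6 annotated starts. Its own promoter had a peak in the DOP list only. That peak was centred 346 bp downstream of the 5′ end, in untranslated exon sequence of the gene, with a score of 109 at percentile 11.4 of the DOP list. The nearest untreated peak was 6374 bp from it. A weak peak upstream of the gene, outside protein-coding genes, was present in both lists. It was centred 5868 bp before the start in DOP-treated cells (score 138, percentile 15.1) and 6028 bp before it in untreated cells (score 89, percentile 9.73). A further peak, at -9464 bp relative to the start, was in the untreated list only (score 142, percentile 16.9), and the nearest start to it was that of Neurod2, 9292 bp away.

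The strongest peaks assigned to Ppp1r1b belonged by position to the neighbouring gene. Stard3, which encodes a cholesterol-binding protein of late endosomes, starts beyond the 3′ end of Ppp1r1b, and a pair of peaks in an intron near its start was found in both lists. The first of them lay 206 bp from the Stard3 start with a score of 825.8 (percentile 80.2) in DOP-treated cells, and 235 bp from it with a score of 924.1 (percentile 85.4) in untreated cells. The second scored 375.2 (percentile 45.2) in DOP-treated and 286.9 (percentile 36.5) in untreated cells. With these left out, no peak of Ppp1r1b exceeded percentile 16.9 of its list.

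Pde10a, the phosphodiesterase of medium spiny neurons that degrades cyclic AMP and cyclic GMP, spans 461277 bp of chromosome 17 (8718237 to 9179513, plus strand) and has 12 annotated starts. No peak of either list lay within 10 kb of its 5′ end. Instead, DOP-treated cells had a group of 4 peaks at a cluster of internal starts at 8994558, 8994610 and 8994644, and untreated cells had none there. The centres lay 746 and 317 bp before the first of these starts, and 44 and 404 bp after the last. Their scores were 175.4, 186.6, 148.9 and 80.1, in that order, at percentiles 20.1, 21.7, 16.6 and 7.45 of the DOP list. The group spanned 1236 bp with a summed score of 591, and the nearest untreated peak was 54684 bp away. That untreated peak, with a score of 46 at percentile 3.91, lay in an intron 6882 bp downstream of the start at 9042850, and a DOP peak with a score of 65 (percentile 5.50) lay 28 bp from it. In bulk chromatin a mark in few cells and a weak mark in many cells cannot be told apart.

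**Figure D1:**
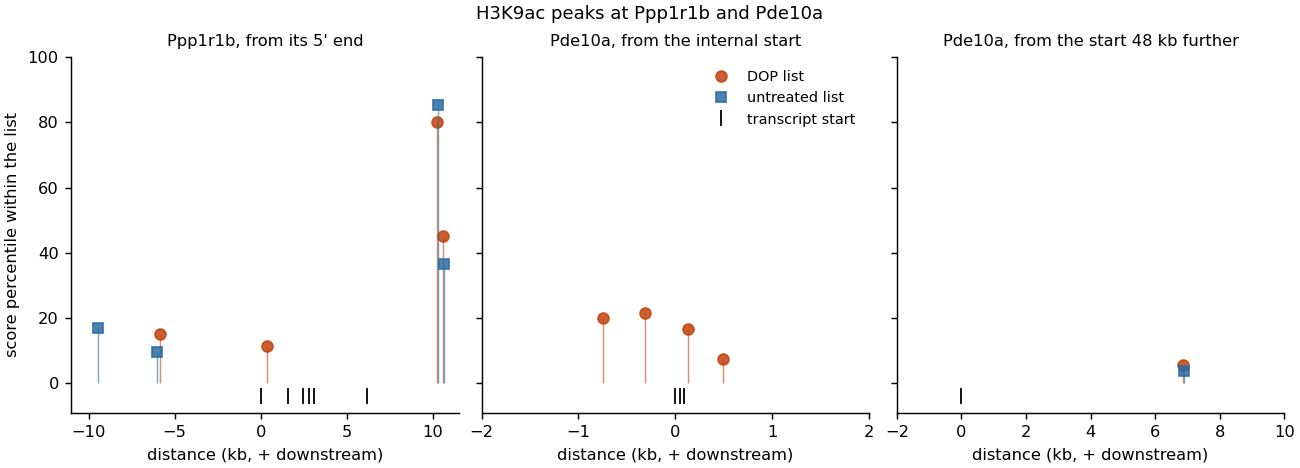
H3K9ac peaks at Ppp1r1b and Pde10a, plotted by the distance of the peak centre from a transcript start (kb) on the horizontal axis and the percentile of the peak's score within its own list on the vertical axis. Circles are DOP peaks, squares are untreated peaks and ticks mark annotated starts. The 4 DOP peaks at the internal start of Pde10a have no untreated counterpart, and the high pair of Ppp1r1b at the right is that of Stard3.

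All 5 DOP-only peaks and the 1 untreated-only peak of the markers lay below percentile 25 of their lists by score. Below that limit, 53.5% of all DOP peaks and 43.8% of all untreated peaks were found in 1 list only, against 2.08% and 2.40% above percentile 75. Presence in 1 list, as at the Ppp1r1b promoter, was therefore common among weak peaks pooled over the genome. Weak peaks at promoters were not counted apart. Among all genes, a DOP peak without an untreated peak within 1 kb of a start occurred at 1.8%. When DOP peaks with centres within 1 kb of each other were chained, 1881 groups of any score held at least 4 peaks, and 5 of these (0.266%) had no untreated peak within 5 kb. The group at Pde10a was 1 of the 5. Among the 7 groups of this size whose best peak was under percentile 25, it was 1 of 3 without an untreated peak within 5 kb, and the 1 with none within 50 kb. The limits of 4 peaks, percentile 25 and 50 kb lie close to the group's own values of 4, 21.7 and 54684 bp. Its place in these classes therefore cannot show that it is unusual. The untreated list had 1918 groups of at least 4 peaks, of which 2 (0.104%) had no DOP peak within 5 kb, and 1 of the 8 whose best peak was under percentile 25. Groups of weak peaks were thus few in either list, and in the DOP list a missing counterpart was not rare among them.

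The shared peaks of the markers kept similar ranks in the lists. The percentile in DOP-treated minus that in untreated cells was 5.42 for the upstream peak of Ppp1r1b, -5.19 and 8.63 for the Stard3 pair, and 1.59 for the downstream peak of Pde10a. Over all 27425 overlapping pairs the median difference was 0.74 and the middle 95% ran from -34.0 to 27.4, which held all 4 differences. A difference cannot exceed the DOP percentile, so a weak DOP peak could not reach that upper bound. Among the 3987 pairs whose DOP peak was under percentile 25, the middle 95% ran from -34.0 to 9.28. The differences of 5.42 and 1.59 came from such pairs and lay inside this narrower range.

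Rgs9, the GTPase-activating protein that shortens signalling from dopamine and opioid receptors, lies on chromosome 11 from 109086669 to 109159443 on the minus strand. It had no peak between its ends. Its nearest peaks were 33677 bp (DOP, score 103) and 33621 bp (untreated, score 84) from a start, on the side of Gna13. Arpp21, a cyclic AMP-regulated phosphoprotein, lies on chromosome 9 from 111967595 to 112138442 on the minus strand with 28 annotated starts, and it was the marker farthest from any peak. The nearest DOP peak was 872842 bp away, at Trank1, and the nearest untreated peak 746540 bp away, at Dclk3, with scores of 36.3 and 35 at percentiles 1.89 and 2.26. A nearer peak was found for 97.6% of all genes in the DOP list and for 96.8% in the untreated list.

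The receptor genes were likewise without peaks. Drd2, the dopamine D2 receptor of the indirect-pathway neurons (chromosome 9, 49148732 to 49216282, plus strand), was 145168 bp from the nearest DOP peak and 145384 bp from the nearest untreated peak, both at Ttc12. Adora2a, the adenosine receptor of the same neurons (chromosome 10, 74779688 to 74797533, plus strand), was 64615 bp from a DOP peak with a score of 210 and 104678 bp from an untreated peak with a score of 1442.3. The untreated peak was the one at the Specc1l promoter, 192 bp from its start. The nearer DOP peak lay 22473 bp from the nearest Specc1l start.

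The neuropeptide precursors had no peak near their starts either. Penk, the enkephalin precursor of the indirect-pathway neurons (chromosome 4, 4060678 to 4065966, minus strand), was 101735 bp from a DOP peak with a score of 29 (percentile 0.88) and 164965 bp from an untreated peak with a score of 61, at Gm11808. Pdyn, the dynorphin precursor of the direct-pathway neurons (chromosome 2, 129512301 to 129525580, minus strand), was 101056 and 101080 bp from the Stk35 promoter peaks of the DOP and untreated lists, which stood at percentile 98.9 of each. Tac1, the substance P precursor of the direct-pathway neurons (chromosome 6, 7505071 to 7512973, plus strand), was 137596 and 137590 bp from the Asns promoter peaks. Markers of both output pathways were thus among the genes without a peak, and the distances were alike in both lists at Pdyn, Tac1, Drd2 and Rgs9. For 6 of the 7 genes without a peak, 75.2% or more of all genes had a nearer peak in each list, and for Rgs9 the shares were 68.3% (DOP) and 67.5% (untreated).

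**Figure D2:**
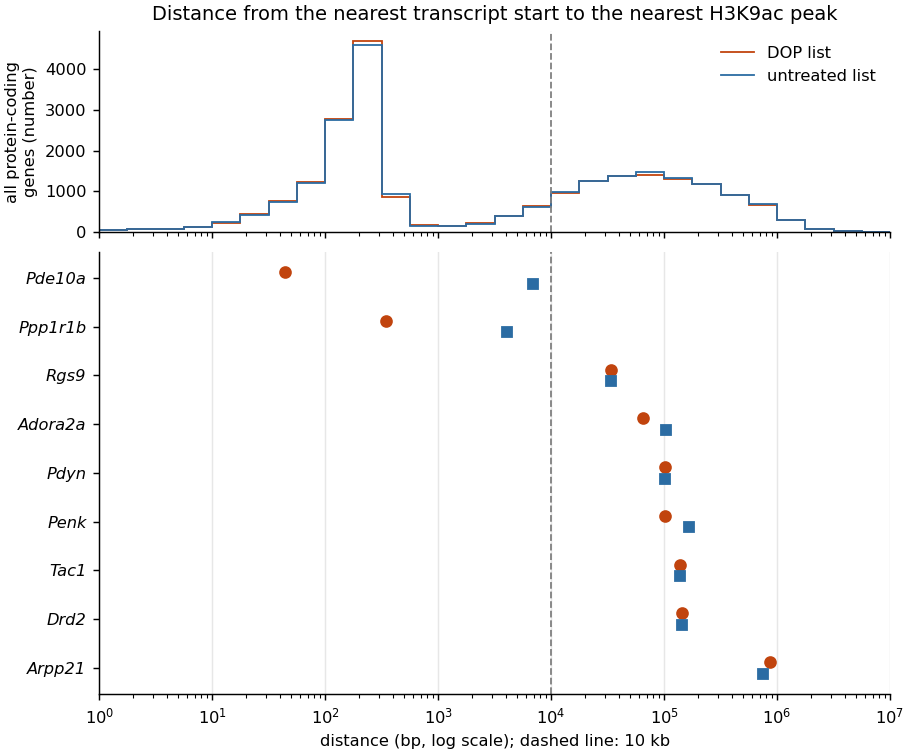
Distance from the nearest transcript start to the nearest peak centre (bp, log scale) for all protein-coding genes (upper panel, number of genes) and for each of the 9 markers (lower panel, circles for the DOP list and squares for the untreated list). The dashed line is the 10 kb limit. Pde10a and Ppp1r1b lie left of it, at 44 and 346 bp in the DOP list, and the other 7 lie at 33621 bp or more.

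Peaks follow the CpG content of promoters, so the markers were set beside starts of like composition. CpG content was taken as the observed over the expected number of CpG dinucleotides from 500 bp before to 500 bp after a start. Of 70051 starts of all genes, 28306 had a ratio of 0.6 or more, and 88.3% of these had a DOP peak within 1 kb and 88.1% an untreated peak. Of the 60 starts of the markers, 14 were in this class, and 3 of these, the internal starts of Pde10a, had a DOP peak while 0 had an untreated peak. In the class from 0.3 to 0.6, a peak was found at 36.4% (DOP) and 35.0% (untreated) of 16443 starts, and at 1 (DOP) and 0 (untreated) of 29 marker starts. Below 0.3 the shares were 4.48% and 4.30% of 25302 starts, and 0 of 17 marker starts in either list.

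Counted by gene, Penk (highest ratio 0.80), Drd2 (0.77), Pde10a (0.73), Rgs9 (0.65), Tac1 (0.65) and Adora2a (0.64) had a start of 0.6 or more, and Ppp1r1b (0.53), Arpp21 (0.52) and Pdyn (0.33) did not. Of the 11231 genes with such a start, 12.7% had no peak of either list within 1 kb, and 5 of the 6 markers were among them. Adora2a fell below 0.6 and Arpp21 rose above it when the window ran from 250 bp before to 50 bp after the start. TATAAA, searched on both strands, was in the 200 bases before the 5′ end of 10.1% of all genes and, of the markers, in Pdyn. It is a match of letters in the window printed above for Pdyn.

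**Figure D3:**
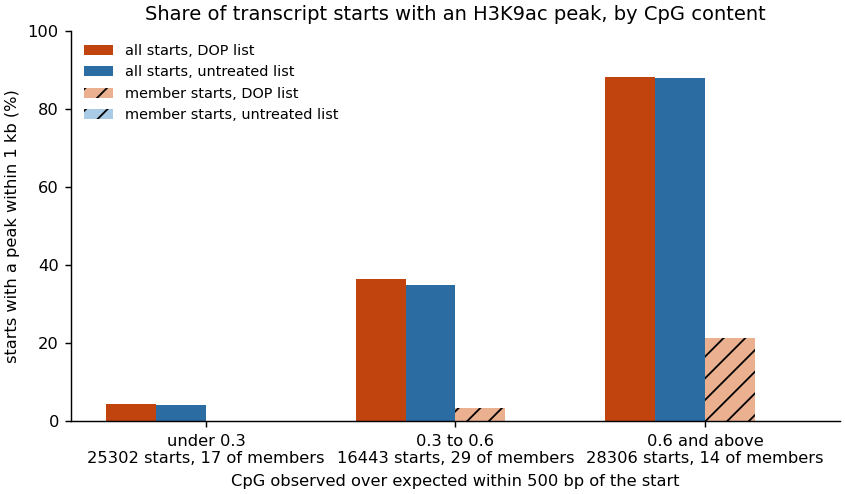
Share of transcript starts with a peak within 1 kb (%), in 3 classes of CpG observed over expected, for all starts (filled bars) and for the starts of the 9 markers (hatched bars) in each list. The markers' starts of 0.6 and above show a bar in the DOP list alone, made by the 3 internal starts of Pde10a, beside 88.3% of all starts. Starts of 1 gene overlap and are not independent.

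Other genes of medium spiny neurons were marked in part. Of 20 further genes of these neurons, 8 had a DOP peak (40%, against 57.7% of all genes) within 10 kb of a start. An untreated peak was found at 7 (35%, against 56.9%). The highest were Strn, the calmodulin-binding scaffold striatin, at percentile 81.6 (DOP) and 82.9 (untreated), Itpr1, the inositol trisphosphate receptor of the endoplasmic reticulum, at 62.3 and 50.7, and Kcnj4, an inward-rectifier potassium channel, at 37.5 and 34.5. Ptpn5, the striatum-enriched tyrosine phosphatase STEP, had a DOP peak only (score 131, percentile 14.2), as did Rasgrp2, a nucleotide exchange factor for Rap, whose higher peak (percentile 16.4) was nearest to a start of Nrxn2. The nearest DOP peak was centred 24 bp from a Rasgrp2 start. The nearest untreated peak lay 10119 bp from one, just past the limit. Dclk3, a kinase enriched in striatum, had an untreated peak only (score 35, percentile 2.26). Among the 11 without a peak were Drd1a, Gpr6, Adcy5, Rasd2, Scn4b, Cnr1, Gnal, Hpca, Actn2 and Syndig1l. The D1 dopamine receptor gene Drd1a, the counterpart of Drd2 in the direct pathway, was 16441 bp (DOP) and 16363 bp (untreated) from a peak.

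The genes that work with the markers fell into groups with peaks throughout and groups with few or none. All 16 of 16 signalling partners, among them the catalytic and regulatory subunits of protein kinase A, the catalytic subunits of protein phosphatase 1 and calcineurin, and Gnb5, the obligate partner of Rgs9, had peaks of both lists. Within 1 kb of a start, 15 of the 16 had a peak in each list, against 51.4% (DOP) and 50.9% (untreated) of all genes. Gnb5 did not, and its nearest peaks lay 2900 bp (DOP) and 3030 bp (untreated) from a start. Of 8 genes of neuropeptide processing and storage, 2 had peaks, in both lists: Cpe and Pam, enzymes that trim and amidate peptides in many secretory cells. Of 5 opioid and tachykinin receptor genes 0 had a peak in either list, and of 4 genes of GABA synthesis and transport likewise 0. The shares of all genes with a peak within 10 kb were 57.7% (DOP), 56.9% (untreated) and 55.3% (both).

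Marker lists of other cells were read in the same way, beside the same shares of all genes (57.7%, 56.9% and 55.3%). All 12 of 12 ubiquitous genes had peaks of both lists. Of 10 neural progenitor genes, 5 had a DOP peak and 3 an untreated peak. Vim, Dlx1 and Notch1 had both. Dlx2 (percentile 42.0) and Fabp7 (percentile 19.2, nearest to Smpdl3a) had a DOP peak only, 6382 and 9924 bp from a start. Within 1 kb of a start, 3 of the 10 genes had a DOP peak (51.4% of all genes) and 3 an untreated peak (50.9%). Sox2, Pax6, Gsx2 and Nes were among those with none in the 10 kb window, Nes with a peak of each list 10194 bp away. Of 8 mesenchymal genes, 6 had peaks of both lists. Of 11 pan-neuronal genes, 2 did, Map2 and Syp. Among 6 astrocyte genes, 3 had a DOP and 2 an untreated peak, with Slc1a3 in the DOP list only. Among 6 oligodendrocyte genes the numbers were 2 and 1, with Mbp in the DOP list only, and among 3 endothelial genes 1 and 0, with Kdr in the DOP list only. Of 5 microglial genes, 2 had peaks in both lists, the highest of which were nearest to other genes. The DOP-only peaks of Slc1a3, Mbp and Kdr stood at percentiles 15.0, 7.58 and 20.6, in the range of the Pde10a group. The part of other cell types in the DOP-only peaks was not tested.

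**Figure D4:**
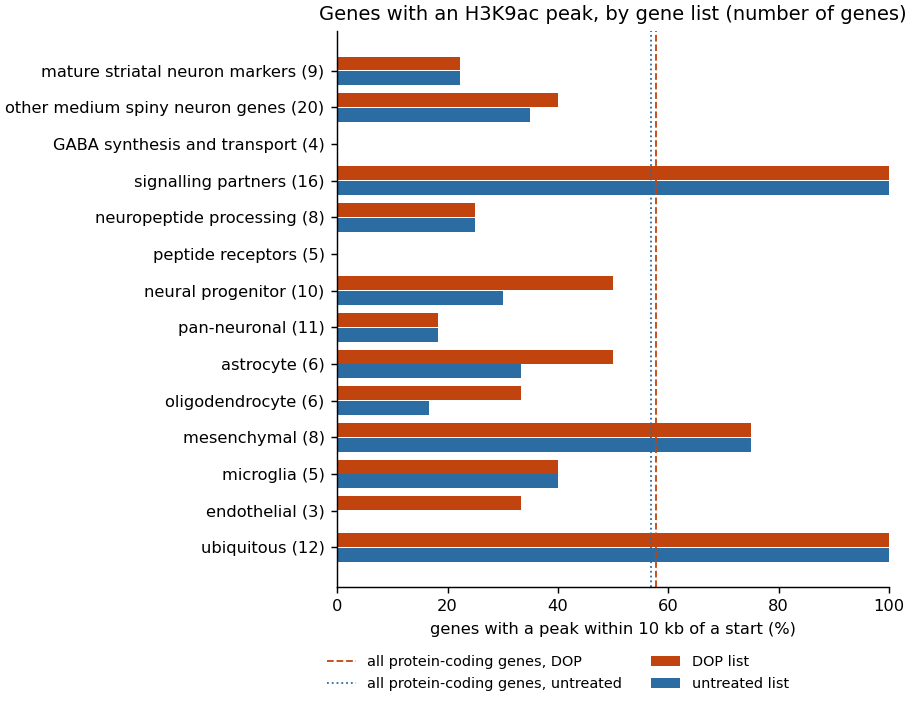
Share of genes that had at least 1 peak centred up to 10 kb from a start (%) for the 9 markers and 13 other gene lists, with the number of genes in brackets. Bars are the DOP and untreated lists, and the vertical lines are all protein-coding genes, 57.7% and 56.9%. The markers stand at 22.2% in both lists and the signalling partners and ubiquitous genes at 100%.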

How the data were processed

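H3K9ac ChIP-seq libraries of STHdh Q111 cells were aligned by the authors to mm9, with Bowtie 2 per the methods of the study and BWA 0.7.10 per the submitters' processing notes, a difference that could not be settled here. Peaks were called with GPS. The paper reports fewer peaks for each condition than the deposited lists hold, and which events it left out is not known. The deposited lists give each event's centre, an interval of 200 bp and a score, whose definition is not given in the sources used here, so the score served only as a percentile within its own list. How samples, the IgG control and a threshold entered the call is not given in the sources used here. Starts came from GENCODE vM1 and sequence from the mm9 assembly. Genes on the mitochondrial chromosome were left out.

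Peaks were shared when they overlapped by at least 1 bp. Alternatives were windows from 1 to 50 kb, other starts, other rules for sharing, the top 50% of each list and a minimum score of 100. Text names every marker, the gene nearest to each of its peaks and, for each marker without one, the nearest peak. For the other lists it names genes with a peak in 1 list only, and for further neuron genes also the 3 highest and all without a peak. Some items under this rule are not reported here. Other names were added after their values were seen. The markers and gene lists were chosen with earlier results of these data known. Functions were tested on simulated data. Python 3.11.15, numpy 2.4.6, pandas 2.3.3, pysam 0.24.0, matplotlib 3.10.9 and samtools 1.23.1 were used. IgG reads, RNA-seq and read densities were not analysed here.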

Additional observations from a re-analysis of the deposited data

How the results depend on the processing

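Of 61 values recomputed under an alternative, 38 stayed within 1.5 times the reported value and 23 moved further. With the window at 1 kb, 0 members had an untreated peak, 0 had peaks of both lists, and the members had 5 DOP and 0 untreated peaks. At 5 kb the counts were 1 member with an untreated peak, 1 with both, and 2 untreated peaks, those at Stard3. At 50 kb, where Rgs9 joined, there were 8 untreated peaks. With the 5′ end of the gene alone, 1 member had a DOP peak, 1 an untreated peak and 1 both, with 2 DOP and 2 untreated peaks. The peaks of Pde10a and the Stard3 pair dropped out, since they had been counted through internal starts. With peaks nearest to a start of the member itself, 2 untreated peaks were left. In the top 50% of each list, 1 member, Ppp1r1b, had a DOP peak, 1 an untreated peak and 1 both, with 1 DOP peak and 1 untreated peak, those at Stard3, and 0 peaks were found in 1 list only. With a minimum score of 100, 1 member had an untreated peak, 1 had both, and 3 untreated peaks were left. The number of members without a peak was 6 to 8 under every window, start and score rule tried. The share of all genes without a peak of either list was computed for the 10 kb window alone (40.7%). The counts under the other rules therefore have no baseline, and their steadiness is not a result about the markers. No paired analysis was possible because the lists hold 1 set of peaks for each condition, without values of single samples, and no sample could be left out. Depth per sample is unknown, so a peak that is missing from a list may be below its detection limit.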

Other observations

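Further groups of at least 4 chained peaks without a peak of the other list within 5 kb were named after their values were seen. In the DOP list they included groups nearest to Cyp1b1, a cytochrome P450 enzyme (4 peaks, summed score 2739, best percentile 86.7), Eomes, a T-box transcription factor (5 peaks, summed score 206.8, best percentile 4.47), and Ripply3, a transcriptional corepressor (4 peaks, summed score 189, best percentile 6.94). The nearest untreated peak was 98215 bp away at Cyp1b1, 16442 bp at Eomes and 14138 bp at Ripply3. In the untreated list the groups were nearest to Lig1, a DNA ligase (4 peaks, summed score 1242, best percentile 57.4), and Myc, the growth-promoting transcription factor, from whose start the group was 91780 bp away (4 peaks, summed score 282, best percentile 14.4).

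On chromosome 17, Pde10a stood in a stretch with few peaks. Beyond the 5′ end of the gene the next DOP peak was 184207 bp away, at Prr18 (score 58), and beyond its 3′ end 1331937 bp away, at Qk (score 1302). The untreated list had its next peaks at 153309 bp (score 68) and 1331828 bp (score 1248.1). The peaks at Qk were shared by the lists and the weak ones on the other side were not.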
